A study of Mus musculus with 15 samples.

Results

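The 10 genes described here encode transporters of the Slc7 and Slc43 families, most of them for amino acids, together with Slc3a2, the heavy chain that several Slc7 proteins need. They are Slc3a2, Slc7a1, Slc7a2, Slc7a5, Slc7a7, Slc7a8, Slc7a10, Slc7a11, Slc43a2 and Slc43a3, 10 of the 33223 genes in the count tables. They were chosen with earlier results of these libraries known, in which Slc7a5 and Slc43a3 stood out between KO and WT in the CD45 fraction. For that contrast, and for the difference of the genotype differences between fractions, values are therefore given as a description with no test.

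The libraries are bulk RNA sequencing of ipsilateral mouse cortex at day 1 after a moderate controlled cortical impact (CCI), in which a device strikes the right parietal cortex. All mice carried floxed EphA4 (EphA4f/f) and all were injured. KO mice also carried VeCadCreERT2, a Cre driven by the VE-cadherin promoter that deletes EphA4 in endothelial cells, and WT mice did not. After neural dissociation and CD45 and CD31 microbeads, there were 4 CD45 KO, 3 CD45 WT, 3 flow-through (FT) KO and 4 FT WT libraries in use. A further library labelled FT WT, whose counts stand in the CD45 table, was left out of the comparisons. Age and sex are not in the labels, and nothing says whether each library is 1 animal, so the tests gauge library-to-library spread, which may be technical.

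Slc3a2 (also called CD98 or 4F2hc) crosses the membrane a single time and carries light chains of the Slc7 family to the cell surface, joined by a disulfide bond. The light chain sets the cargo: large neutral amino acids for Slc7a5 (LAT1) and Slc7a8 (LAT2), cationic and neutral ones for Slc7a7 and Slc7a6 (system y+L), small neutral ones for Slc7a10 (Asc-1), and cystine in exchange for glutamate for Slc7a11 (xCT). Slc7a1 and Slc7a2 carry arginine and lysine without a heavy chain, Slc43a2 (LAT4) carries large neutral amino acids without one, and Slc43a3 carries purine nucleobases.

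Promoter sequences are shown for the genes that parted the fractions by the largest folds, Slc7a7, Slc7a8 and Slc7a10, and for Slc7a11, whose window held the most motif matches. RefSeq (GRCm38.p6) windows of 250 bases before a start were held for 7 of the 10 members, not for Slc7a2, Slc7a5 or Slc43a3. The motifs searched on both strands were TGATGNAA, the composite element bound by ATF4 with C/EBP factors, TGACNNNGC, the antioxidant response element bound by NRF2, GAGGAAGT, a core bound by PU.1, and CACGTG, the E-box. Capitals mark matches. All are on the minus strand except Slc7a10.
Slc7a7, chr14:54417945-54418194: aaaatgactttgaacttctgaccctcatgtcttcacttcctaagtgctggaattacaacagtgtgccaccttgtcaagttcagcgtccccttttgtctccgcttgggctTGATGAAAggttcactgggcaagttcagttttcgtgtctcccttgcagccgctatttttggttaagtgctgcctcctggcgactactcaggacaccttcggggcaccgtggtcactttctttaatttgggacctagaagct
Slc7a7, chr14:54417703-54417952: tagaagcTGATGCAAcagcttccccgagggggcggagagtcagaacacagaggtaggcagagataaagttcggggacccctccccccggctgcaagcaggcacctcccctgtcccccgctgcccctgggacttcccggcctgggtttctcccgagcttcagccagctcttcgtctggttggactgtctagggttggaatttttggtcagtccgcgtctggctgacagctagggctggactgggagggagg
Slc7a8, chr14:54781887-54782136: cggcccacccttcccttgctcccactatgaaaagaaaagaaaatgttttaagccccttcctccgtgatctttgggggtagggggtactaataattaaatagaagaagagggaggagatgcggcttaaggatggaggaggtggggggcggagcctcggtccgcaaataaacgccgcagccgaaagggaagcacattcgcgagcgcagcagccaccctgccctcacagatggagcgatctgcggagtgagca
Slc7a10, chr7:35186135-35186384: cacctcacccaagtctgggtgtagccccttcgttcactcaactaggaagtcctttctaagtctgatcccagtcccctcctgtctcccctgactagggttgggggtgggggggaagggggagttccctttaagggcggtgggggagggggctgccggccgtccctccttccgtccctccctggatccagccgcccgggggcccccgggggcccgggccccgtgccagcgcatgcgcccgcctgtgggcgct
Slc7a11, chr3:50443614-50443863: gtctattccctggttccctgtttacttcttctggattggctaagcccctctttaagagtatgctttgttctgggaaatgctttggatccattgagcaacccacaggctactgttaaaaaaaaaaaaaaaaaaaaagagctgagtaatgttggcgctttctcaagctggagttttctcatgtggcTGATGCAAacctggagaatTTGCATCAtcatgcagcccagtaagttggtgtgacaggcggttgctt

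The Slc7a11 window held the ATF4 element on each strand, starting 66 and 47 bases before the start. Of the 5 Slc7a7 windows, the 2 shown are those with a match; they belong to different starts, overlap at their ends and each held the element at 1 place, 141 and 243 bases before their starts. The same letters occurred in 3.45% of the 32851 promoter windows in the table, the antioxidant element in 10.2%, the PU.1 core in 2.44% and the E-box in 6.02%. The only other match in a member was an antioxidant element 11 bases before a start of Slc7a1. These are matches of letters and no binding was measured.

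Depth was 11574414 to 31337948 counts per CD45 library and 19204814 to 27270907 per FT library. Levels are CPM, counts scaled to a common library total, or CPM per kb of merged exon length where genes are compared with each other. The fractions separated on the leukocyte gene Ptprc, which encodes CD45: its CPM was 805 to 1043 in the CD45 fraction and 0.660 to 1.22 in the FT fraction. Endothelial markers were present in both fractions, with a summed CPM of 781 to 1041 in CD45 and 564 to 748 in FT. The sums hide a difference by gene. Of 16 markers, 14 were higher in CD45 and 2 lower, with a median log2 fold change of 3.27, against -0.05 for all genes. Pecam1 had 131 to 178 CPM in CD45 and 1.91 to 6.23 CPM in FT. Slc16a1, a large part of the FT sum, had 38.9 to 56.8 CPM in CD45 and 221 to 375 CPM in FT. Slc2a1, the largest part of the CD45 sum, had 316 to 391 CPM in CD45 and 179 to 303 CPM in FT. The targeted gene, Epha4, ranged over 1.69 to 3.54 CPM in CD45 KO and 2.699 to 2.92 CPM in CD45 WT, and over 36.03 to 42.2 CPM in FT KO and 38.5 to 43.0 CPM in FT WT. These ranges overlapped, and since other cells in each fraction can express Epha4 they are no measure of its deletion in endothelial cells.

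The most abundant member in both fractions was the heavy chain. Slc3a2 averaged 170 CPM per kb in CD45 and 131 CPM per kb in FT libraries, and in each fraction its range lay above that of every other member. In CD45 libraries it was followed on the CPM per kb scale by Slc7a8 at 62.1, Slc7a11 at 40.9, Slc7a7 at 32.5, Slc43a2 at 30.7 and Slc7a5 at 24.7, neighbours whose ranges overlapped in turn. Slc7a1 at 6.45, Slc7a2 at 4.21 and Slc43a3 at 2.37 CPM per kb formed a lower set with overlapping neighbours, and Slc7a10 was last at 0.392.

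In FT libraries the order was another. Slc7a5 came after the heavy chain at 38.3 CPM per kb with a range clear of its neighbours, followed by Slc7a10 at 16.8, Slc7a11 at 14.0, Slc7a1 at 10.3, Slc7a2 at 9.64 and Slc43a2 at 9.36 CPM per kb, each overlapping the next. Slc43a3 at 2.38 and Slc7a8 at 2.01 CPM per kb overlapped each other, and Slc7a7 was lowest at 0.558. Slc7a8 and Slc7a7, high among the members in CD45 libraries, were thus the lowest in FT libraries.

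**Figure D1:**
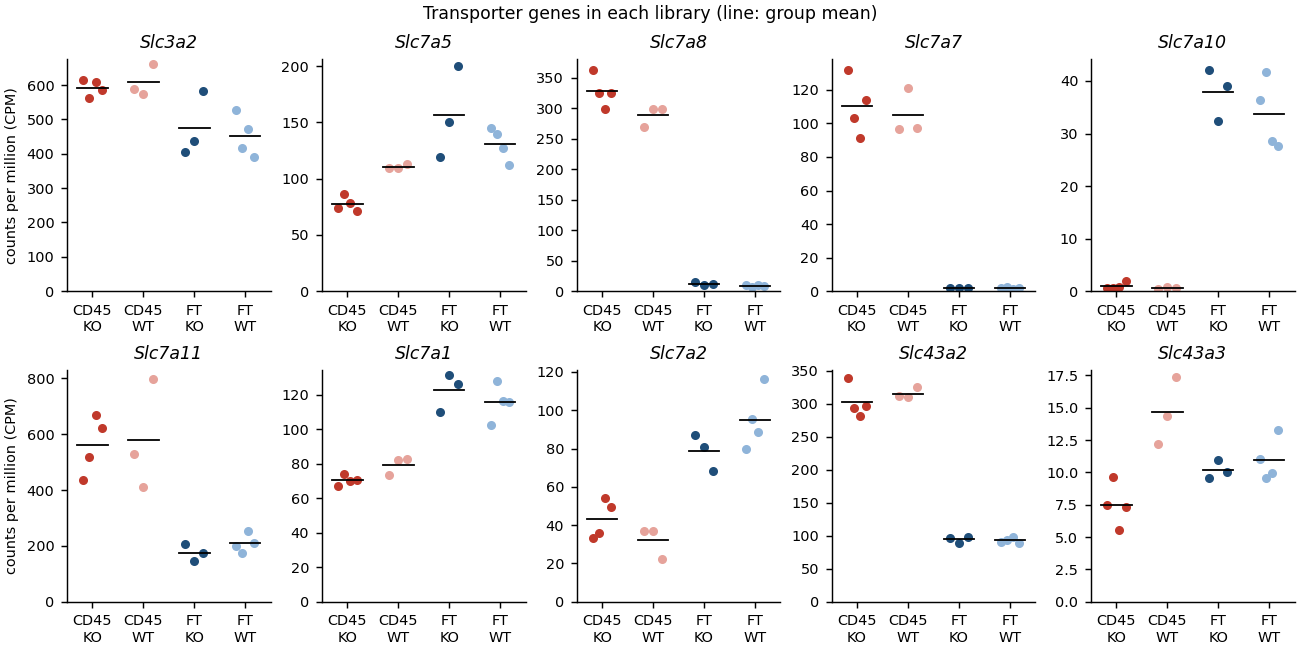
CPM of each member in each library, with 1 point per library, a line at the group mean and a vertical axis from 0 for each gene. Slc7a8, Slc7a7, Slc7a11 and Slc43a2 are high in CD45 libraries, Slc7a10 is near 0 there, and Slc7a5 and Slc43a3 lie lower in CD45 KO than in CD45 WT.

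Between fractions, 9 of the 10 members passed the test, against 86.1% of the 18098 genes tested, so most genes differed and the members' share is near that background. Of the members, 6 were higher and 3 lower in CD45, against 41.4% and 44.7% of all genes. The median member log2 fold change was 0.71, against -0.05 for all genes. The test was edgeR's quasi-likelihood test with TMM scaling, called at a Benjamini-Hochberg adjusted p under 0.05. TMM factors were 0.808 to 0.862 for CD45 and 1.18 to 1.24 for FT libraries, so a fitted fold exceeds the ratio of CPM. With library totals in place of TMM, the median of all genes moved by -0.53 and higher calls made up 32.1% of calls, against 48.1%. In bulk fractions, fewer cells of a type and less RNA per cell cannot be told apart.

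Among the light chains, Slc7a7 showed the largest rise. It had 132, 103, 91.6 and 114 CPM in CD45 KO and 96.6, 121 and 97.0 CPM in CD45 WT libraries, against 1.82, 1.61 and 2.09 CPM in FT KO and 1.92, 2.30, 1.38 and 1.83 CPM in FT WT libraries. Every CD45 library was far above every FT library. The log2 fold change was 6.38 (SE 0.12, edgeR adjusted p = 7.21e-17), with 29 to 57 counts in each FT library. Exons of Oxa1l, on the other strand, overlap 6.998% of the Slc7a7 exon length.

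Slc7a8 had the same form. Its CPM was 363, 325, 298 and 325 in CD45 KO and 269, 299 and 298 in CD45 WT, against 14.3, 9.42 and 11.04 in FT KO and 9.37, 7.62, 10.1 and 8.42 in FT WT. No CD45 value came near an FT value, and the log2 fold change was 5.45 (SE 0.11, edgeR adjusted p = 1.21e-16).

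Slc7a11, the cystine carrier that feeds glutathione synthesis, had 436, 519, 667 and 624 CPM in CD45 KO and 529, 410.1 and 799 CPM in CD45 WT. FT KO libraries had 205, 144 and 174 CPM, and FT WT libraries 199.6, 176, 255 and 209 CPM. The fractions did not overlap, and within the CD45 fraction both the lowest and the highest library were WT. The log2 fold change was 2.11 (SE 0.16, edgeR adjusted p = 7.88e-09).

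Slc7a10 went the other way. It had 0.670, 0.534, 0.864 and 1.90 CPM in CD45 KO and 0.453, 0.792 and 0.578 CPM in CD45 WT, from 10 to 37 counts a library. In FT KO it had 42.1, 32.4 and 39.1 CPM and in FT WT 36.4, 41.8, 28.6 and 27.7 CPM. All CD45 libraries were low, and the log2 fold change was -5.00 (SE 0.23, edgeR adjusted p = 5.07e-12). Lrp3 exons on the other strand overlap 17.9% of its exon length, which matters most for the low CD45 counts. Astrocyte markers, a cell type in which Slc7a10 is known, had a summed CPM of 71.8 to 104 in the CD45 fraction and 3081 to 4322 in the FT fraction, and their part in the result was not tested.

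The heavy chain itself rose less. Slc3a2 had 614, 563, 609 and 585 CPM in CD45 KO and 587, 574 and 662 CPM in CD45 WT, against 406, 438 and 582 CPM in FT KO and 526, 416, 473 and 390.5 CPM in FT WT. The CPM ranges of the fractions overlapped through FT KO replicate 3 alone, the highest FT library. The log2 fold change was 0.90 (SE 0.10, edgeR adjusted p = 1.68e-07), or 0.37 with library totals.

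Slc7a5 did not pass. Its log2 fold change between CD45 and FT was -0.10 (SE 0.10, edgeR adjusted p = 0.353), with mean CPM of 91.8 in CD45 and 142 in FT. It passed in 4 of 22 alternatives, which did not share a direction. These were -0.63 with library totals, -0.35 with upper-quartile scaling and -0.53 among KO libraries, against 0.38 among WT libraries. The sign also turned without FT KO replicate 3, at 0.0052, where the test was not passed.

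Of the carriers that need no heavy chain, Slc43a2 was higher in CD45. It had 339, 294, 281 and 296 CPM in CD45 KO and 312, 309.9 and 325 CPM in CD45 WT, against 97.2, 89.7 and 98.6 CPM in FT KO and 91.0, 94.1, 98.7 and 88.3 CPM in FT WT. Values within each fraction lay close together and the fractions were wide apart, and the fitted log2 change was 2.24 (SE 0.06; edgeR adjusted p = 6.39e-15). Exons of Gm45606 on the other strand overlap 9.18% of its exon length.

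Slc7a1 and Slc7a2, the arginine carriers without a heavy chain, were lower in CD45, whereas Slc7a7, which also carries cationic amino acids, was higher. Slc7a2 averaged 38.4 CPM in CD45 and 88.1 CPM in FT, and the fitted log2 change was -0.69 (SE 0.14; edgeR adjusted p = 0.000381), and its exons share 6.95% of their length with Gm26584. The call was lost among KO libraries, at -0.38. Slc7a1 averaged 74.4 CPM in CD45 and 119 CPM in FT, but its fitted change was only -0.14 (SE 0.06, edgeR adjusted p = 0.0458). It was 0.08 among WT libraries and -0.67 with library totals, and the call held in 6 of 22 alternatives.

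Slc43a3 had the same mean CPM of 10.6 in CD45 and FT libraries. TMM scaling gave a fitted log2 change of 0.52 (SE 0.12; edgeR adjusted p = 0.000913). It was -0.01 with library totals, 0.27 with upper-quartile scaling, 1.05 among WT libraries and 0.04 among KO libraries.

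**Figure D2:**
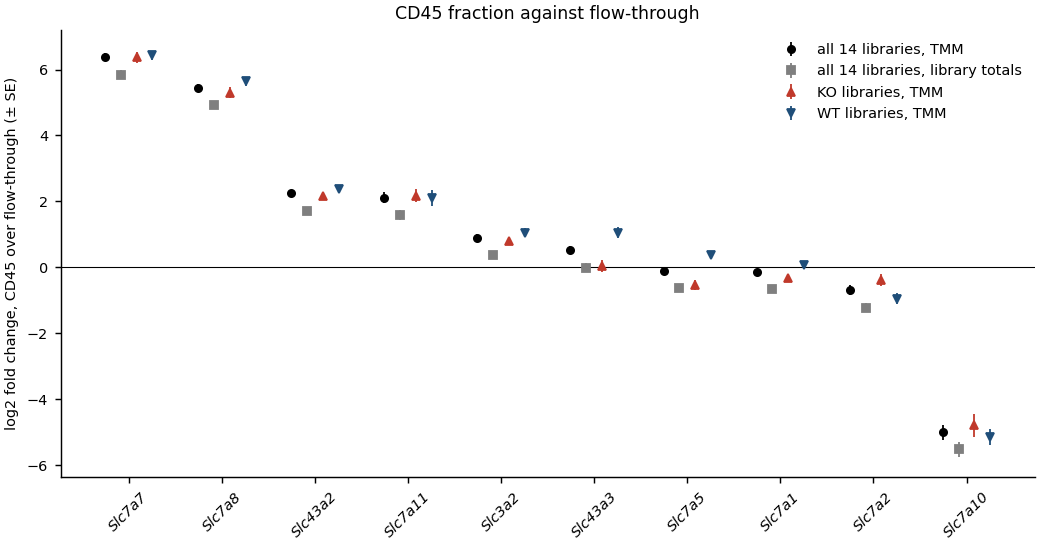
Log2 fold change of each member in CD45 over flow-through libraries (± SE) from 4 fits, which differ in scaling or in the genotypes used. Slc7a7, Slc7a8, Slc43a2, Slc7a11 and Slc3a2 stay above 0 and Slc7a10 and Slc7a2 below it in all 4, whereas Slc43a3, Slc7a5 and Slc7a1 each fall on both sides of 0 among the 4.

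The light chains that pair with Slc3a2 made up a different mixture in each fraction. The shares are taken within each library from CPM per kb, so scaling between libraries cancels in them. Slc7a8 was 36.6% of the sum of Slc7a5, Slc7a6, Slc7a7, Slc7a8, Slc7a10 and Slc7a11 in CD45 libraries and 2.51% in FT libraries. Slc7a7 was 19.2% in CD45 and 0.697% in FT. Slc7a5 was 14.6% in CD45 and 47.4% in FT, and Slc7a10 was 0.230% in CD45 and 20.9% in FT. Slc7a11 was nearer to even, at 23.9% in CD45 and 17.7% in FT. RNA of the heavy chain was 0.999 ± 0.0327 times the light-chain sum in CD45 and 1.63 ± 0.141 times in FT (SD, n = 7 each).

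**Figure D3:**
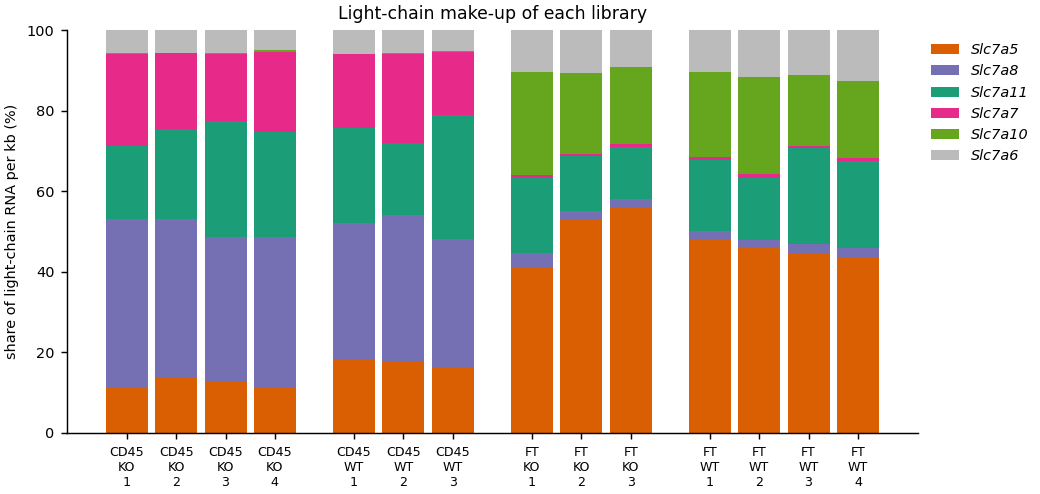
Share of each light chain in the summed light-chain CPM per kb of each library, with CD45 KO, CD45 WT, FT KO and FT WT libraries from left to right. Slc7a8 is the largest share in CD45 libraries (mean 36.6%) and Slc7a5 in flow-through libraries (mean 47.4%).

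Within the CD45 fraction, KO and WT libraries did not overlap for 2 of the 10 members, Slc7a5 and Slc43a3, both lower in KO. Over all genes tested, 2.16% were lower without overlap. These genes chose the set, so nothing is read from that count. No gene of 15660 passed edgeR's adjusted p, 0%, and 693 (4.43%) had an unadjusted p under 0.05. DESeq2 called 5.

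Slc7a5 had 74.1, 86.0, 78.5 and 71.5 CPM in CD45 KO and 109.6, 109 and 113 CPM in CD45 WT libraries. The lowest WT library stood above the highest KO library, and the WT libraries were close together. The log2 fold change was -0.54 (SE 0.09), a fold of 0.687, and leaving out each library in turn gave -0.59 to -0.51. Its share of light-chain RNA was 12.3 ± 1.28% in CD45 KO (SD, n = 4) and 17.6 ± 1.08% in CD45 WT (SD, n = 3).

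Slc43a3 had 7.50, 9.66, 5.53 and 7.31 CPM in CD45 KO and 12.2, 14.3 and 17.3 CPM in CD45 WT libraries, from 64 to 450 counts. The groups were again apart, with CD45 KO replicate 3, the shallowest library, lowest. The log2 fold change was -0.99 (SE 0.19), a fold of 0.504, and leave-one-out values ran over -1.12 to -0.84.

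The other 8 members overlapped between CD45 KO and CD45 WT. Their log2 fold changes were 0.67 (SE 0.51) for Slc7a10, 0.40 (SE 0.24) for Slc7a2, 0.15 (SE 0.09) for Slc7a8, 0.04 (SE 0.12) for Slc7a7, -0.06 (SE 0.10) for Slc3a2, -0.07 (SE 0.25) for Slc7a11, -0.09 (SE 0.09) for Slc43a2 and -0.20 (SE 0.08) for Slc7a1. Single libraries set several of these. Slc7a10 was 0.12 without KO replicate 4, and Slc7a2 was 0.20 without WT replicate 3 and 0.26 without KO replicate 3. With 1 library left out in turn, Slc7a11 ran over -0.28 to 0.24, Slc7a7 over -0.052 to 0.14 and Slc3a2 over -0.12 to 0.0089, so their signs were not fixed. The heavy chain thus had a mean CPM of 593 in KO and 608 in WT, and Slc7a5 one of 77.5 in KO and 111 in WT.

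Marker sums stand beside these values. Neutrophil markers summed to 6261 to 10656 CPM in CD45 KO and 8738 to 11306 CPM in CD45 WT. KO replicates 1 to 4 had 6261, 7804, 10433 and 10656 CPM. Homeostatic microglia markers summed to 4359 to 5415 CPM in KO and 4205 to 4566 CPM in WT. Endothelial markers summed to 781 to 1041 CPM in KO and 855 to 870 CPM in WT, none at 0. All 3 ranges overlapped. By gene, 8 of 10 neutrophil markers had lower fitted values in KO, with a median log2 change of -0.21. Higher in KO were 10 of 11 homeostatic microglia markers, with a median of 0.14, and 8 of 10 monocyte and macrophage markers, with a median of 0.11. Markers of cells that the CD45 beads should not retain were also found and did not share a direction. All 10 neuron markers had higher fitted values in KO, with a median of 1.03, and summed to 50.2, 208, 91.0 and 99.3 CPM in KO and 35.3, 71.9 and 64.2 CPM in WT. All 8 astrocyte markers were also higher in fitted value, with a median of 0.16, as were 7 of 8 pericyte and smooth muscle markers. Lower in KO were 6 of 8 oligodendrocyte markers, with a median of -0.04, and the 2 ependymal markers tested. No marker passed the adjusted test, and the part of these cells in the 2 differences was not tested.

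**Figure D4:**
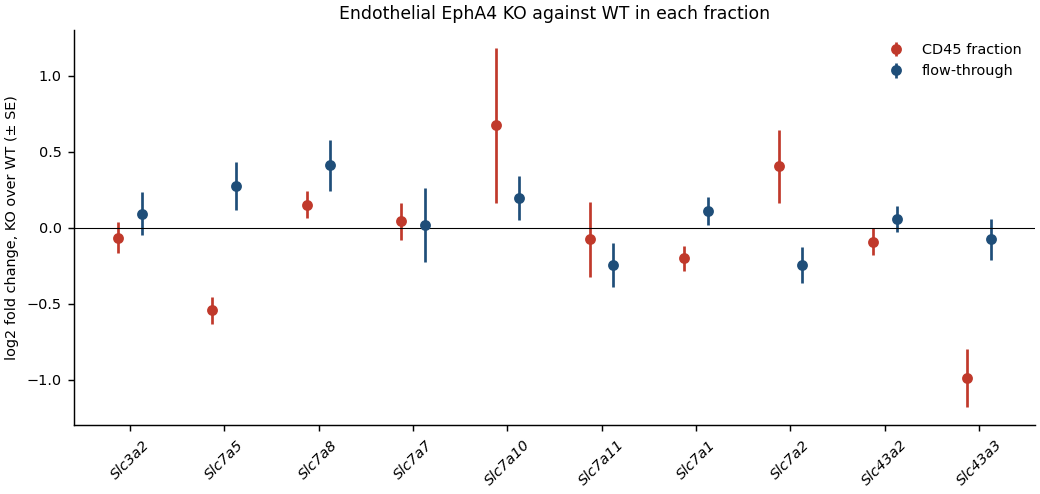
Log2 fold change of each member, KO over WT (± SE), in the CD45 fraction and in the flow-through. Slc7a5 at -0.54 and Slc43a3 at -0.99 are the lowest CD45 points, and their flow-through points are 0.28 and -0.08.

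In the flow-through no member passed the test between KO and WT, against 1.57% of 16546 genes, and all 10 overlapped, where 12% of genes did not. The median member change was 0.08, against -0.01 for all genes. Slc7a5 had 119, 150.2 and 199.8 CPM in FT KO and 145, 139, 127 and 112 CPM in FT WT. The KO libraries spread more widely than the WT libraries and enclosed most of them, and the fitted log2 change was 0.28 (SE 0.16; edgeR adjusted p = 0.580). It was 0.07 without FT KO replicate 3 and 0.44 without FT KO replicate 1 (edgeR adjusted p = 0.244). Slc43a3 had 9.60, 10.99 and 10.05 CPM in FT KO and 11.01, 9.60, 9.95 and 13.3 CPM in FT WT, a change of -0.08. Slc7a8 had the largest fitted change with all 7 libraries, 0.41 (SE 0.17, edgeR adjusted p = 0.359), but 0.23 without FT KO replicate 1, below Slc7a5.

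Set against the flow-through in 1 model, the KO-minus-WT change in CD45 was lower by 0.85 (SE 0.20) for Slc7a5 and by 0.93 (SE 0.24) for Slc43a3 on the log2 scale. Both signs held under all 19 alternatives run. Slc7a5 and Slc43a3 were chosen for their CD45 change, which is part of these values, so the held signs are no separate result. No gene of 18098 passed this comparison in edgeR, 0%, while 7.21% had an unadjusted p under 0.05.

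The genes whose profile over the 7 CD45 libraries was most like that of Slc7a5, by root mean square distance of centred log2 CPM among 8888 genes, were Lrg1 (0.09), Msrb1 (0.09), Abhd1 (0.11), Tnfsf14 (0.11) and Fut4 (0.12). Genes near Slc7a5 or Slc43a3 were picked on these same libraries, so a lower mean in KO follows from the choice and is no separate result. Lrg1, a secreted glycoprotein, was at 371 ± 25.2 CPM in CD45 KO (SD, n = 4) and 528 ± 20.6 CPM in CD45 WT (SD, n = 3). Msrb1, a methionine sulfoxide reductase, had a mean CPM of 312 in KO and 416 in WT. Other genes overlap 89.6% of the exon length of Abhd1, so its counts are uncertain. Nearest to Slc43a3 were Ccnf (0.23), Abhd1 (0.26), Mcm10 (0.29), S1pr2 (0.32) and Pnpla2 (0.32). Ccnf encodes cyclin F with a mean CPM of 7.24 in KO and 11.8 in WT, and Pnpla2, a triglyceride lipase, one of 76.3 in KO and 115 in WT.

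**Figure D5:**
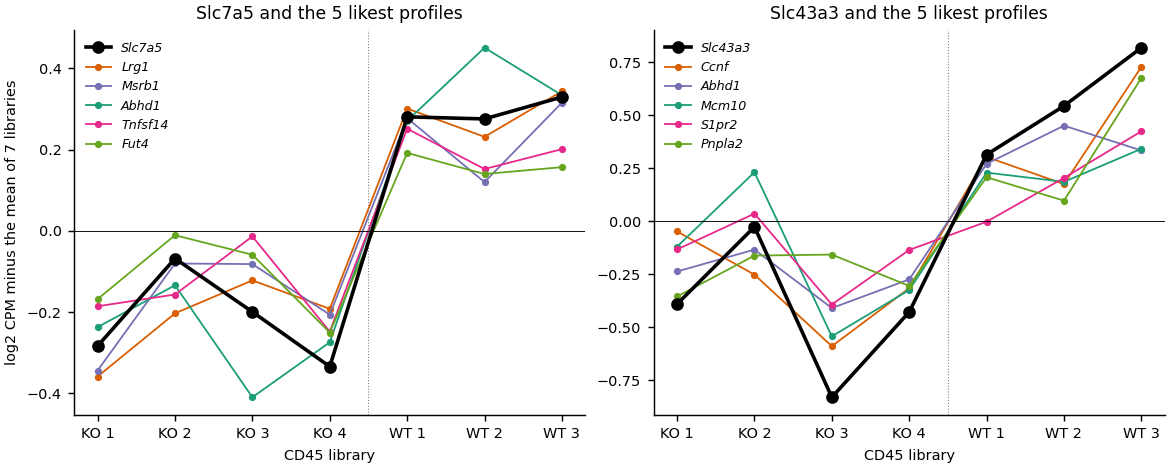
Log2 CPM of Slc7a5 and Slc43a3, and of the 5 genes nearest to each, minus the mean over the 7 CD45 libraries, with KO left of the dotted line and WT right of it. Lines join values of 1 gene and the libraries have no order; Slc7a5 lies below its mean in all 4 KO libraries and above it in all 3 WT libraries.

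Other transporters and enzymes of the same amino acids differed between fractions as well, where 41.4% of all genes were called higher and 44.7% lower. All 4 glutamate transporters tested were lower in CD45, such as Slc1a2, the main astrocyte carrier, at -5.73 (SE 0.15, edgeR adjusted p = 3.01e-15). Of 19 glutamine and neutral amino acid transporters, 14 were higher and 5 lower, with Slc36a1, a lysosomal carrier, at 2.71 (SE 0.07) and Slc38a3, a glutamine carrier, at -4.15 (SE 0.11). Of 14 arginine metabolism genes, 9 were higher and 2 lower, led by Arg1, the urea-forming arginase, which averaged 2620.3 CPM in CD45 and 1.33 CPM in FT. Purine salvage genes were higher for 11 and lower for 2 of 13.

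The lists nearest to the control of these transporters split. Of 25 ATF4 targets, Slc3a2 among them, which respond to amino acid shortage, 13 were higher and 8 lower in CD45, but 8 higher and 13 lower with library totals. Of 22 genes of amino acid sensing by mTORC1, 13 were higher and 5 lower, but 7 and 12 with library totals. Aminoacyl-tRNA synthetases were higher for 5 and lower for 2 of 12, but for 0 and 10 with library totals. Glutathione and NRF2 genes were higher for 13 and lower for 7 of 20, including Nfe2l2, which encodes NRF2, at 3.16 (SE 0.11).

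Between KO and WT, these lists held 1 called gene, where 1.57% of all genes were called in the flow-through and 0% in CD45. In the flow-through Slc6a17, a neutral amino acid transporter of synaptic vesicles, had 114, 117 and 116 CPM in KO and 67.8, 68.4, 58.7 and 76.6 CPM in WT, and the fitted log2 change was 0.80 (SE 0.09; edgeR adjusted p = 0.000551). Neuron markers there summed to 824 to 1233 CPM in KO and 498 to 737 CPM in WT, and their part was not tested. In the CD45 fraction no listed gene passed. Of 24 ATF4 targets tested there, 17 had lower and 7 higher fitted values in KO, and 6 had an unadjusted p under 0.05, where 4.43% of all genes did. The median change was -0.09, against 0.02 for all genes. The lists were chosen with earlier results of these data known, so these counts are a description and no separate result. Among other lists, 11 of 12 aminoacyl-tRNA synthetases and 15 of 20 glutathione and NRF2 genes were lower in fitted value. Of these lists, 1 and 2 genes had an unadjusted p under 0.05. Not all lists leaned lower in KO. Arginine metabolism genes had higher fitted values for 10 and lower for 4 of 14, and all 3 glutamate transporters tested were higher. Of 12 branched-chain and tryptophan catabolism genes, 7 were higher and 5 lower. Glutamine and neutral amino acid transporters were higher for 9 and lower for 10 of 19. Trib3, a pseudokinase induced by ATF4, had 9.67, 9.07, 9.33 and 6.54 CPM in KO and 13.9, 12.2 and 23.9 CPM in WT.

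By the GENCODE M21 annotation of GRCm38, the members lie on 8 chromosomes. Slc3a2 is at chr19:8706882-8723369, Slc7a5 at chr8:121881150-121907694, Slc7a2 at chr8:40862396-40922308 and Slc43a3 at chr2:84936579-84958509. Slc7a7 at chr14:54369442-54417780 and Slc7a8 at chr14:54722209-54781946 share a chromosome. Slc7a10 is at chr7:35186385-35201114, Slc7a11 at chr3:49892526-50443614, Slc7a1 at chr5:148327410-148399904 and Slc43a2 at chr11:75531694-75577575. Counts cover all annotated exons of a gene, so no isoform is resolved.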

How the data were processed

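Per the labels' protocols, RNA was made into stranded mRNA libraries with 14 PCR cycles. The submitters' processing notes name Trim Galore, FastQC, STAR 2.7.9a, DESeq2 and GRCm38. No source used here names the counter or its strand setting. The authors deposited raw read counts per gene, 1 table per fraction, and these counts were used. CPM were computed from them by library total. Genes were named from GENCODE M21 (33130 of 33223).

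edgeR 4.0.16 in R 4.3.3 fitted quasi-likelihood models (robust, TMM, filterByExpr with a minimum count of 10 and total of 15), with Benjamini-Hochberg adjustment over all genes tested. KO and WT were compared within each fraction. CD45 and FT, and the genotype-by-fraction difference, were fitted over 14 of 15 libraries. DESeq2 1.42.0, other scalings, no filter, GC and length removal, and leaving out libraries were alternatives; library totals and KO libraries alone were added after seeing the data. The procedure was tested on simulated data. Up to 4 genes per list, those with the smallest p, could be named, and 5 nearest genes for Slc7a5 and Slc43a3. The members and lists were chosen with earlier results of these data known. Replicates were numbered by accession order.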

Additional observations from a re-analysis of the deposited data

Results flagged for a closer look

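The library labelled FT WT that was left out of the comparisons carried 5 members above the range of the 4 other FT WT libraries and 4 below it. It had 592 CPM of Slc3a2, against 390.5 to 526 CPM in the 4 other FT WT libraries. Slc7a7 was at 117 CPM, against 1.38 to 2.30 CPM, and Slc7a8 at 300.2 CPM, against 7.62 to 10.1 CPM. Slc7a11 was at 429.8 CPM, against 176 to 255 CPM, and Slc43a2 at 276 CPM, against 88.3 to 98.7 CPM. Below the range were Slc7a1 at 79.6 CPM, against 103 to 128 CPM, Slc7a2 at 27.3 CPM, against 79.7 to 116 CPM, Slc7a5 at 92.0 CPM, against 112 to 145 CPM, and Slc7a10 at 0.505 CPM, against 27.7 to 41.8 CPM. For 9 of the 10 members its CPM lay within the range of the CD45 libraries, Slc43a2 being the exception, and for 1, Slc43a3, within that of FT WT. Its Ptprc was 906 CPM. No sample stood apart from its group by Dixon's criterion in the 20 groups of 4 values tested. Only CD45 KO and FT WT had 4 libraries in use, so the left-out library and the groups of 3 were not covered.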

How the results depend on the processing

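Between fractions, Slc3a2, Slc7a7, Slc7a8, Slc7a10, Slc7a11 and Slc43a2 kept direction and call under all 22 alternatives, and Slc7a2 under 21. Slc43a3 was -0.0085 with library totals. Slc7a5 was 0.0052 without FT KO replicate 3 and 0.38 among WT libraries, and Slc7a1 was 0.084 there.

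The number of genes called between FT KO and WT was 260, against 416 with DESeq2, 629 with no filter, 30 in the joint fit, 0 with the left-out library entered as labelled, and 134 to 287 when 1 library was left out. Between CD45 KO and WT it was 0, against 5 with DESeq2 and 0 to 1 with 1 library left out, 1 without KO replicate 1. For genotype by fraction it was 0, against 45 with DESeq2, 15 with no filter and 0 to 2 with 1 library left out. The causes were not tested.

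Leaving out 1 library also turned the sign of Slc3a2, Slc7a7 and Slc7a11 between CD45 KO and WT. In the flow-through KO and WT comparison, signs turned for members near 0. Slc7a7 was -0.0070 with library totals, -0.0070 with the GC and length trend removed and -0.085 to 0.13 with 1 library left out. Slc43a2 was -0.022 with that trend removed. With 1 library left out, Slc3a2 was -0.068 to 0.19 and Slc43a3 -0.14 to 0.018. With the left-out library entered as labelled, Slc7a7 was -4.32, Slc7a8 -3.08, Slc43a2 -0.73 and Slc3a2 -0.18. No paired analysis was possible because the labels carry no replicate numbers. Counts of 10 to 37 limit Slc7a10 in CD45 libraries.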
